A study of Mus musculus with 12 samples.

Results

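The interferon-induced GTPases were examined as a family of 10 genes chosen by name, *Gbp2*, *Gbp3*, *Gbp4*, *Gbp5*, *Gbp6*, *Gbp7*, *Iigp1*, *Irgm1*, *Irgm2* and *Igtp*, among 39017 genes counted in whole adrenals. A row of that name was present for 9 of the 10, and the counts of *Gbp5* were not analysed here. All 9 passed edgeR's filter on low counts, and each had a mean above 100 normalized counts over the 12 mice. No measured value entered the choice by rule, but the family was picked with earlier results of these mice known, so its direction is described here and is not an independent test.

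Guanylate-binding proteins (GBPs) and immunity-related GTPases (IRGs) are among the proteins that cells make most strongly after exposure to interferon-γ. They coat or disrupt the membranes around intracellular bacteria and parasites, and GBPs also promote inflammasome activation. Within the IRG group, Iigp1 (Irga6) is an effector that loads onto parasite vacuoles, while Irgm1, Irgm2 and Igtp (Irgm3) are regulators that sit on the membranes of the cell's own organelles and keep the effectors inactive there. Interferon receptors signal through JAK kinases to transcription factors that bind GAS elements and, in a complex with IRF9, interferon-stimulated response elements (ISREs).

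RNA was sequenced from whole adrenals, trimmed of fat, of 12 female mice aged 10 to 11 weeks on a mixed sv129-C57Bl/6 background, with 1 library per mouse. The 6 Ctrl mice carried ASCre/+, a Cre recombinase expressed from the aldosterone synthase (*Cyp11b2*) locus in cells of the zona glomerulosa (zG), although their titles call them wild type. The 6 βCat-GOF mice were bigenic, carrying ASCre/+ together with Ctnnb1fl(ex3)/+, an allele whose product is stabilized β-catenin once Cre has acted, so every mouse carried Cre and the genotypes differ in the floxed allele. The comparison asks what β-catenin stabilization in zG cells does to the transcriptome of the gland. Because whole glands were used, fewer cells of a type and less RNA per cell cannot be told apart.

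Between 13484675 and 25625494 reads per mouse were counted on genes. *Ctnnb1* itself had 21620 ± 858 normalized counts in Ctrl glands and 21400 ± 1151 in those of βCat-GOF mice (SD, n = 6 mice each), and a count over the whole gene does not show whether the floxed exon was removed. The adrenal identity was clear, with *Star* at 294400 and *Cyp11b1* at 257100 normalized counts on average in Ctrl glands. Of 6 zG markers, *Agtr1a*, *Agtr1b*, *Vsnl1* and *Dab2* passed the cut-offs as higher in βCat-GOF adrenals, by 0.89, 1.56, 1.00 and 0.75 on the log2 scale. The other two, *Cyp11b2*, the locus that drives Cre, and *Hsd3b6*, were at -0.18 and 0.16 and did not pass (edgeR adjusted p = 0.820 and 0.912). In 3 pairs of mice the labels share a stem (Ctrl 1 and 2, Ctrl 3 and 4, βCat-GOF 1 and 2), and whether these mice are related was not tested. No 2 libraries of a group differed by so little that they could be 1 library deposited again (chi-square over its degrees of freedom of 15.8 to 136 in 30 pairs), so all were kept. By this measure βCat-GOF 1 lay nearer to βCat-GOF 2 (39.2) than to the 4 other βCat-GOF mice (79.7 to 136), while the pairs Ctrl 1 and 2 (42.8) and Ctrl 3 and 4 (39.8) were within the range of the other Ctrl pairs. All Ctrl labels begin with 1 number and 5 of the 6 βCat-GOF labels with another, so what that number marks cannot be told apart from genotype.

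The family lies in clusters on GRCm38 (mm10; positions from GENCODE M21). *Gbp7* (142530342 to 142550149), *Gbp3* (142560026 to 142573209) and *Gbp2* (142620602 to 142638008) lie on the plus strand of chromosome 3, with *Gbp2b* (142594847 to 142619179) between *Gbp3* and *Gbp2*. On the minus strand of chromosome 5, *Gbp4* lies from 105115767 to 105139586, and the row named *Gbp6* carries an identifier that M21 gives to a locus from 105214907 to 105293695, which spans *Gbp6* and *Gbp10*. Since 81.6% of that locus's exon bases are shared with other genes, and its longest transcript matches *Gbp10* at 99.2% identity over 80.1% of its length, the counts of the *Gbp6* row are uncertain. *Irgm1* is on the minus strand of chromosome 11 (48861968 to 48871683). Farther along chromosome 11, *Igtp* (58199556 to 58207591) and *Irgm2* (58199618 to 58222782) are overlapping plus-strand genes, sharing 8.01% of the exon bases of *Igtp*.

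RefSeq promoter windows on GRCm38.p6, from 250 bases before a transcript start to 50 after it, were at hand for 7 of the 10 genes, *Gbp2*, *Gbp3*, *Gbp5*, *Gbp7*, *Irgm1*, *Irgm2* and *Igtp*. Each was searched on both strands for the ISRE core GAAANNGAAA and the GAS core TTCNNNGAA. All 7 genes held the ISRE core, against 3.99% of the 27025 genes with a window, and 4 (*Gbp5*, *Gbp7*, *Irgm2* and *Igtp*) held the GAS core, against 9.55%. Both cores were present in 0.614% of genes and in those same 4. *Gbp3* had another window, 142560106 to 142560405, which held neither core. Windows of other genes of these families were searched too. Those of *Gbp2b*, *Tgtp1*, *Tgtp2*, *Gm12250*, *Gm12185* and *9930111J21Rik1* held the ISRE core. Those of *Ifi47*, *Gm5431*, *9930111J21Rik2* and *Irgq* held neither core. The genes belong to families, and the *Irgm2* and *Igtp* stretches below are nearly identical, so the matches are not independent. The stretches around the matches are printed 5′ to 3′ on the gene's own strand for the 6 of these genes that were counted, because they show how closely the predicted interferon elements sit to the start. Capitals mark the ISRE core (on the opposite strand it reads as a TTTC repeat) and the GAS core.
Gbp2 (plus strand, chr3:142620592-142620625): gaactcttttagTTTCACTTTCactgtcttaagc
Gbp3 (plus strand, chr3:142559987-142560026): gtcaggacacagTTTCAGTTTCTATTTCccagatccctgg
Gbp7 (plus strand, chr3:142530218-142530304): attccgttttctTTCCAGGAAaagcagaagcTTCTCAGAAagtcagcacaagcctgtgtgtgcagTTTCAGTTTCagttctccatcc
Irgm1 (minus strand, chr11:48871423-48871462): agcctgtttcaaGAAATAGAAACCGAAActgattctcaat
Irgm2 (plus strand, chr11:58214890-58214934): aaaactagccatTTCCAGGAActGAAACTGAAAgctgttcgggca
Igtp (plus strand, chr11:58199499-58199543): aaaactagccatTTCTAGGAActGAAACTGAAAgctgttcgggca

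The ISRE core began 59 bases before the start in *Gbp2*, 53 in *Gbp7*, 64 in *Irgm2* and 34 in *Igtp*. *Gbp3* held 2 overlapping copies, beginning 45 and 39 bases before the start, and *Irgm1* another overlapping pair at 30 and 24 bases. In *Irgm2* and *Igtp* the GAS core stands just upstream of the ISRE core, with the 2 lower-case letters ct between them in both genes. In *Gbp7* a pair of GAS cores lies farther out, at 106 and 87 bases. In *Gbp5* the ISRE core began at 165 bases and the GAS cores at 245 and 52. Distances are to the RefSeq starts, which are not always the M21 ends given above. The windows of *Irgm2* (58214727 to 58215026) and *Irgm1* (48871371 to 48871670) lie inside the M21 spans of those genes. That of *Irgm2* lies past the end of *Igtp*, and the *Gbp2* stretch crosses the M21 start of *Gbp2*. A match of letters is a description and not a measured binding site.

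**Figure D1:**
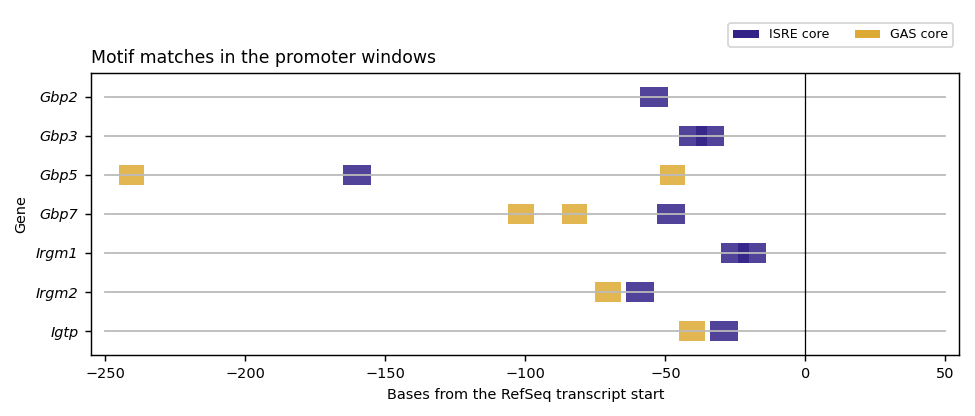
Positions of ISRE core (dark blue) and GAS core (yellow) matches in the promoter windows of 7 genes, with distance in bases from the RefSeq transcript start on the x axis and 1 line per gene. Another window of *Gbp3*, which held neither core, is not drawn. In the 6 counted genes every ISRE core begins within the 64 bases before the start, and *Gbp5*, which has no counts here, has its ISRE core at 165 bases.

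In Ctrl adrenals the levels per length spanned a wide range. They are CPM, a gene's count scaled to its library total after edgeR's TMM adjustment, divided by the kilobases of exon. *Gbp2* was highest at 19.8 ± 2.93 CPM per kb, followed by *Gbp7* at 15.8 ± 3.89, *Igtp* at 14.5 ± 2.70, *Irgm2* at 13.8 ± 3.61, *Irgm1* at 11.9 ± 1.63 and *Gbp3* at 9.41 ± 2.96 (SD, n = 6 mice). Neighbours in this order had overlapping ranges of mice, so no neighbouring pair among these 6 was separated, although every Ctrl mouse had more *Gbp2* (15.8 to 24.0 CPM per kb) than any had *Irgm1* (9.33 to 14.2) or *Gbp3* (6.27 to 14.9). Below a gap in which the mice did not overlap came *Gbp6* at 3.43 ± 1.03 and *Iigp1* at 3.36 ± 1.31 CPM per kb, which overlapped each other. The *Gbp6* value is uncertain, since it divides by 4.31 kb of exon, of which 81.6% is shared with other genes. The Ctrl range of *Iigp1*, 2.28 to 5.83 CPM per kb, also stayed below that of *Gbp3*. *Gbp4* was lowest at 1.41 ± 0.50 CPM per kb and its Ctrl range did not reach that of *Iigp1*. In βCat-GOF adrenals the levels per length were 16.1 for *Gbp2*, 10.6 for *Igtp*, 9.81 for *Gbp7*, 8.92 for *Irgm2*, 8.06 for *Irgm1*, 5.42 for *Gbp3*, 1.92 for *Gbp6*, 1.29 for *Iigp1* and 0.835 for *Gbp4*.

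All 9 measured GTPases had a lower mean in βCat-GOF than in Ctrl adrenals, and 3 passed the cut-offs as lower, *Iigp1*, *Irgm1* and *Gbp3*. These cut-offs are those of the study (a base mean, taken over all 12 mice, above 100 normalized counts, a fold above 1.4 and an adjusted p under 0.05), applied to edgeR's quasi-likelihood test over 14953 genes. The same cut-offs called 1.14% of the 11431 genes with that base mean as lower and 1.94% as higher, and no GTPase was called higher by edgeR, with 0 higher at an unadjusted p under 0.05 and 0 at DESeq2's adjusted p. A log2 fold change below 0 was found in 50% of all genes tested. The median log2 fold change was -0.69 over the 9 GTPases and 0.000105 over all genes tested. At an unadjusted p under 0.05, 8 of the 9 were lower, against 10.7% of all genes, and at an adjusted p under 0.05 alone the 3 called genes stood against 1.52%. The study itself applied its cut-offs to DESeq2. Run here, DESeq2 gave 6 of the 9 as lower at an adjusted p under 0.05, against 3.41% of genes. Past all 3 cut-offs with DESeq2 were 5 of the 9, among 282 genes called lower in all.

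**Figure D2:**
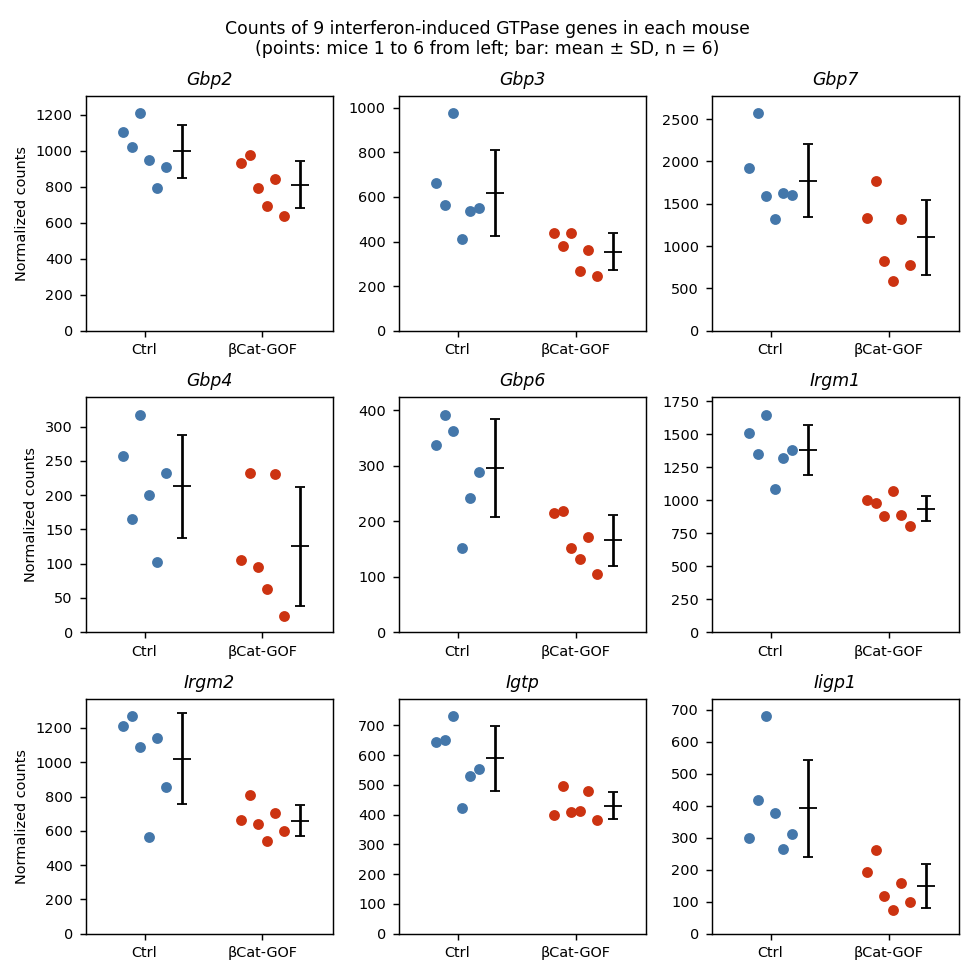
Normalized counts (y axis, from 0) of 9 GTPase genes in each mouse of the Ctrl (blue) and βCat-GOF (red) groups, with the mean and SD of 6 mice as bars. Groups do not overlap for *Irgm1* and *Iigp1* and overlap for the other 7, most widely for *Gbp4*.

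The effector *Iigp1* showed the widest difference of the family. It lies alone among the listed genes on the plus strand of chromosome 18 (60376027 to 60392634) and shares no exon bases with another gene. Its normalized counts had a lowest, median and highest value of 266, 344 and 680 in Ctrl mice and of 72.8, 138 and 260 in βCat-GOF mice. Every βCat-GOF mouse lay below every Ctrl mouse, a separation seen for 1.04% of the genes with a base mean above 100. The mean of βCat-GOF adrenals, 151 ± 68.7, was 38.4% of the Ctrl mean of 392 ± 152 (SD, n = 6 mice each). *Iigp1* fell by 1.38 on the log2 scale (SE 0.30, edgeR adjusted p = 0.0241). Leaving out βCat-GOF mouse 6, the second lowest for this gene, ended the call (edgeR adjusted p = 0.0540), and each of the 11 other fits that leave out 1 mouse kept it.

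The regulator *Irgm1* had the smallest relative spread of the family within each group. Counts ran from 1087 through a median of 1365 to 1651 in Ctrl mice and from 808 through 934 to 1068 in βCat-GOF mice, again with no overlap, although the nearest mice of the groups were only 1087 and 1068. The SD was 13.8% of the mean in Ctrl and 10.2% in βCat-GOF. *Irgm1* fell by 0.57 on the log2 scale (SE 0.10, edgeR adjusted p = 0.00863), and it stayed called in all 12 fits that leave out 1 mouse. Without the 3 mice whose label repeats a stem (Ctrl 1, Ctrl 3 and βCat-GOF 1) its change of -0.48 was below the fold cut-off, with an edgeR adjusted p of 0.0338.

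*Irgm2* and *Igtp*, the regulators whose M21 spans overlap, did not pass. *Irgm2* had 564, 1115 and 1269 normalized counts (lowest, median, highest) in Ctrl and 539, 653 and 810 in βCat-GOF mice. A single Ctrl mouse, number 4, lay among the βCat-GOF mice, and the 5 others lay above all of them. The log2 fold change of *Irgm2* was -0.64 (SE 0.17, edgeR adjusted p = 0.0544), and without Ctrl mouse 4 it was -0.76 with an edgeR adjusted p of 0.00733. *Igtp* had 422, 600.0 and 732 in Ctrl and 384, 412 and 496 in βCat-GOF mice, with the same Ctrl mouse alone in the βCat-GOF range. Its log2 fold change was -0.46 (SE 0.13, edgeR adjusted p = 0.0616), and -0.54 with an edgeR adjusted p of 0.0231 without Ctrl mouse 4.

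The chromosome 3 GBPs differed from one another in how far they moved. *Gbp3* had 411, 557 and 976 normalized counts in Ctrl and 243, 370.0 and 438 in βCat-GOF mice, and 5 of the 6 Ctrl mice were above every βCat-GOF mouse. It fell by 0.80 on the log2 scale (SE 0.20, edgeR adjusted p = 0.0446), the call nearest to the threshold. That call ended when any of 9 mice was left out (Ctrl 1, 2, 3, 5 or 6, or βCat-GOF 2, 4, 5 or 6), with an edgeR adjusted p of up to 0.0871, and it ended without the 3 mice with a repeated stem (edgeR adjusted p = 0.0755).

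*Gbp7*, which had the most counts of the family, spread widely among βCat-GOF mice, with 1320, 1618 and 2571 in Ctrl and 592, 1072 and 1765 in βCat-GOF adrenals. The 3 lowest βCat-GOF mice were below every Ctrl mouse while the highest exceeded 4 of the 6, and the log2 fold change was -0.69 (SE 0.24, edgeR adjusted p = 0.137). *Gbp2*, the most abundant per length, had the smallest difference, with 795, 983 and 1209 normalized counts in Ctrl and 636, 816 and 978 in βCat-GOF mice. The groups overlapped, and the log2 fold change of *Gbp2* was -0.30 (SE 0.13, edgeR adjusted p = 0.197).

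On chromosome 5, *Gbp4* had 102, 216 and 318 normalized counts in Ctrl and 24.1, 100 and 232 in βCat-GOF mice, the widest scatter of the family (an SD of 69.6% of the mean in βCat-GOF). βCat-GOF mice 2 and 5 stood at Ctrl levels and mouse 6 was lowest of all. The log2 fold change was -0.76 (SE 0.43, edgeR adjusted p = 0.341). The *Gbp6* row had 152, 313 and 393 in Ctrl and 106, 161 and 219 in βCat-GOF mice. Only Ctrl mouse 4 lay within the βCat-GOF range, and the log2 fold change was -0.84 (SE 0.24, edgeR adjusted p = 0.0689). The *Gbp6* row passed without Ctrl mouse 4 (edgeR adjusted p = 0.0265) and without βCat-GOF mouse 1 (edgeR adjusted p = 0.0412).

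Mouse by mouse, the GTPases were low in some βCat-GOF adrenals far more than in others. Taken as the difference in log2 CPM from the Ctrl mean and averaged over the 9 genes, the βCat-GOF mice 1 to 6 stood at -0.49, -0.25, -0.81, -1.12, -0.50 and -1.28. Mouse 4 was below every Ctrl mouse for all 9 genes, mouse 6 for 8 and mouse 3 for 7, while mice 1, 2 and 5 were so for 3 genes each. Some zonal markers split the βCat-GOF mice in the same way and others did not. Besides those with values here, *Cyp11b1*, *Scarb1* and narrowly *Dab2* did. *Agtr1a*, *Agtr1b*, *Cyp11b2*, *Hsd3b6*, *Cyp11a1*, *Cyp21a1*, *Mc2r*, *Nr5a1* and *Akr1b7* did not. Mice 3, 4 and 6 had the most *Star*, the cholesterol transporter of steroid synthesis (538900, 492000 and 510200 normalized counts, against 236700 to 368000 in mice 1, 2 and 5), and the most *Hsd3b1* (551400, 529600 and 532400, against 299600 to 355100). They had the least *Vsnl1*, a zG marker (1782, 1656 and 1854, against 2555 to 3446). This split was noticed after the values were seen, and its part in the GTPase values was not tested. Among Ctrl mice the average ran from -0.38 in mouse 4 to 0.39 in mouse 3. The average log2 CPM was 4.99 ± 0.29 in Ctrl and 4.25 ± 0.40 in βCat-GOF adrenals (SD, n = 6), with ranges of 4.61 to 5.38 and 3.71 to 4.75 that overlapped. Group means apart, the genes varied together, with a median Pearson r of 0.65 over the 36 gene pairs (12 mice, each gene centred on its group mean, range 0.21 to 0.85), and 29 pairs above 0.5. The points of these correlations share libraries, so they are given as a description only.

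**Figure D3:**
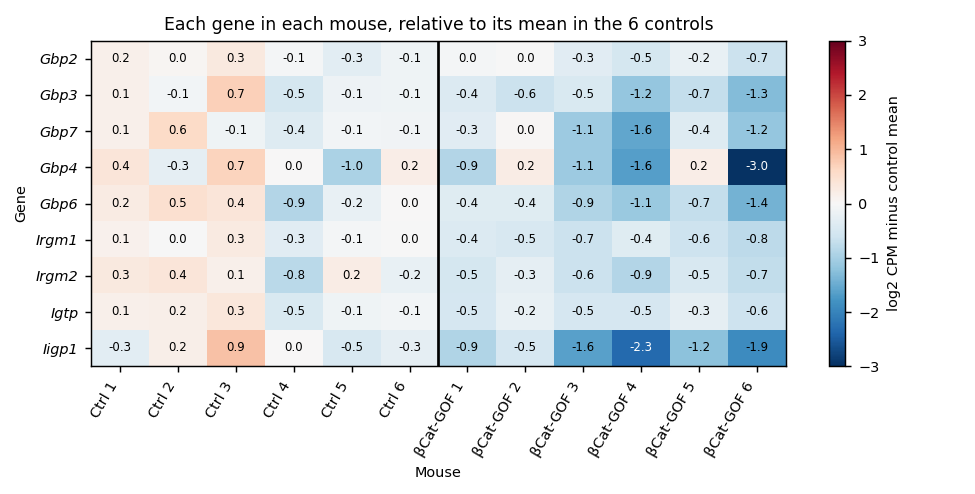
Difference in log2 CPM of 9 GTPase genes (rows) from their Ctrl mean in each of the 12 mice (columns), with blue for lower and red for higher values. βCat-GOF mice 3, 4 and 6 are the bluest columns, with averages of -0.81, -1.12 and -1.28, and Ctrl mouse 4 is the lowest Ctrl column at -0.38.

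Genes outside the list whose centred values followed the average of the 9 most closely were sought among those with a base mean above 100. The nearest were *Zbp1*, a nucleic acid sensor (r = 0.91), *Gbp9*, another GBP (0.90), *D330050G23Rik* (0.89), *Wnt4*, a secreted Wnt ligand (0.89), and *Psmb9*, an immunoproteasome subunit (0.89), over the 12 mice. *Slfn9*, *Rwdd2a*, *Fut8* and *Pla2g5* followed at 0.88 and *Ddit4* at 0.87. Of the 10, *Psmb9* was called, falling from 402 ± 67.0 to 225 ± 72.0 normalized counts, by 0.83 on the log2 scale (SE 0.20, edgeR adjusted p = 0.0360). The group means of 3 of the 10 went the other way, those of *Wnt4* from 5575 ± 1731 in Ctrl to 9647 ± 3242 in βCat-GOF adrenals (edgeR adjusted p = 0.0945), of *Pla2g5* from 1172 ± 250 to 1206 ± 463 and of *Ddit4* from 989 ± 227 to 1081 ± 387, none past the test. These r values are the highest of 11390 candidate genes over only 12 mice, and they are given as a description.

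Other members of the inducible GTPase families, fixed as a list of 21 genes, were measured beside the 10. Of the 20 with a row, 15 were tested and all 15 had a lower mean in βCat-GOF adrenals, against 50% of all genes tested. Their median log2 fold change was -0.76. None passed all 3 cut-offs, but only 3 of the 15 had a base mean above 100. At an unadjusted p under 0.05 in edgeR, 12 of the 15 were lower, against 10.7% of all genes. With DESeq2 7 were lower at an adjusted p under 0.05, against 3.41% of genes, 1 of them also past the fold and base mean cut-offs.

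Past the adjusted p alone were *Gm4951*, an IRG gene near *Iigp1* on chromosome 18, and *Tgtp2*, which encodes the effector Irgb6. *Gm4951* had 60.9, 110 and 191 normalized counts (lowest, median, highest) in Ctrl and 3.58, 14.5 and 59.5 in βCat-GOF mice, with no overlap between the groups. It fell by 2.03 on the log2 scale (SE 0.53, edgeR adjusted p = 0.0483). *Tgtp2* had 39.9, 60.1 and 103 in Ctrl and 12.6, 27.6 and 41.0 in βCat-GOF mice and fell by 1.26 (SE 0.29, edgeR adjusted p = 0.0300). *Tgtp1* and *Tgtp2* are 99.8% identical over 99.6% of the longest *Tgtp1* transcript, so how their reads divide is uncertain. The longest *9930111J21Rik1* transcript likewise matches *9930111J21Rik2* (98.8% identity over 100% of its length) and *Gm5431* (95.7% over 76.4%). The tested genes are therefore not all separate measurements. *F830016B08Rik* and *Tgtp1* had log2 fold changes of -1.34 and -1.30 with edgeR adjusted p-values of 0.260 and 0.139.

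The smallest difference among the 15 was that of *Irgq*, an IRG relative, at -0.19 (edgeR adjusted p = 0.150). The list was made by family, and whether each of its genes is itself induced by interferon was not tested. *Gbp11*, *Gm12185*, *Gvin1*, *Gm4070* and *Irgc1* stayed under 1 CPM in every mouse and were not tested. Of 10 GTPases of the dynamin, atlastin and mitofusin group, which are not counted among the inducible families, the median log2 fold change was -0.067. *Atl1*, an atlastin that shapes the endoplasmic reticulum, was called lower (-0.67, SE 0.17, edgeR adjusted p = 0.0420), *Mfn1* was higher at +0.38 (edgeR adjusted p = 0.0236) but below the fold cut-off, and *Dnm3* and *Dnm1* were at -0.70 and -0.68 and did not pass.

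**Figure D4:**
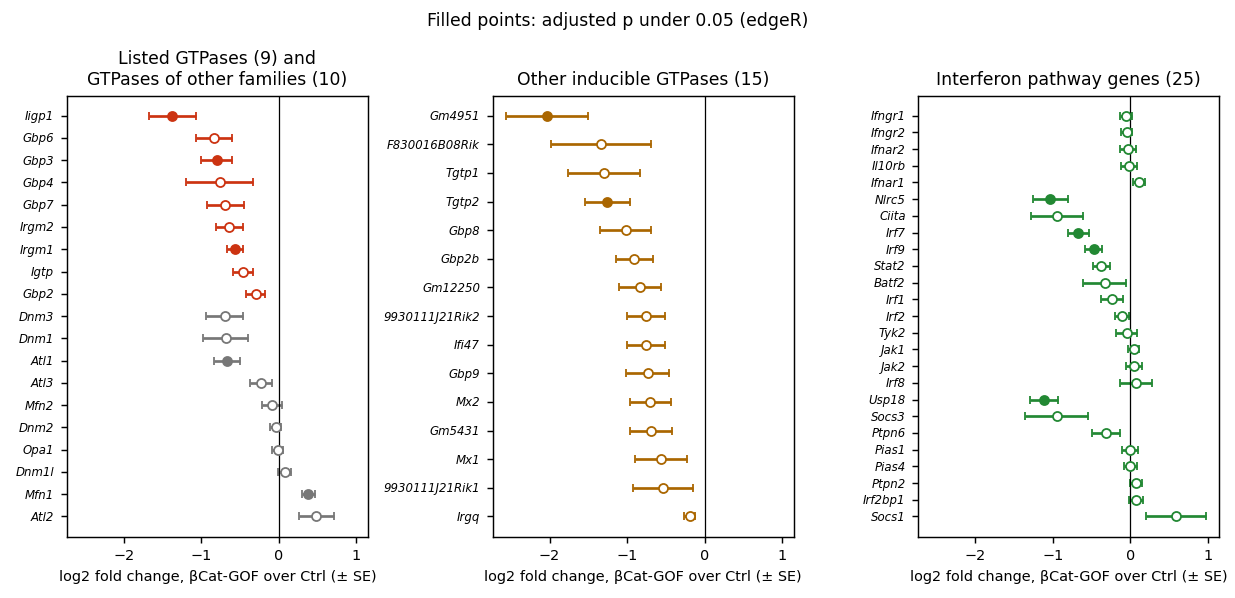
Log2 fold changes of βCat-GOF over Ctrl (x axis, error bars ± SE), with points filled where edgeR's adjusted p was under 0.05. Red marks listed GTPases, grey 10 GTPases outside the inducible families, brown 15 other genes of the inducible families and green 25 interferon pathway genes. The 24 genes tested of the inducible families all lie left of 0. The receptors at the top of the pathway panel lie within 0.12 of 0.

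Along the interferon pathway, no difference passed the test among the receptors, and 3 genes were called lower among factors and inhibitors. Over all genes with a base mean above 100, 1.14% were called lower. The pathway list held 34 genes, of which 25 were tested, and their median log2 fold change was -0.047. The ligand *Ifng* and the other 7 listed interferon genes were under 1 CPM in every mouse, with *Ifna2*, *Ifna4* and *Ifne* at 0 counts. The receptor chains *Ifngr1*, *Ifngr2*, *Ifnar2* and *Il10rb* had log2 fold changes of -0.06, -0.05, -0.03 and -0.02, and *Ifnar1* one of 0.11, with 0 of the 5 at an unadjusted p under 0.05 in edgeR and 0 at DESeq2's adjusted p. These genes were well counted, *Ifngr1* for example at 1039 ± 67.0 in Ctrl and 1004 ± 105 in βCat-GOF adrenals (SD, n = 6).

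Of 12 kinases and transcription factors, 10 had a base mean above 100. Called lower were 2, against 1.14% of all genes with that base mean. *Nlrc5*, the transactivator of MHC class I genes, had 179, 250 and 302 normalized counts in Ctrl and 72.5, 107 and 211 in βCat-GOF mice, and fell by 1.03 on the log2 scale (SE 0.23, edgeR adjusted p = 0.0246). *Irf7*, the factor that amplifies type I interferon responses, fell by 0.67 (SE 0.14, edgeR adjusted p = 0.0152), with 540 to 896 counts in Ctrl and 340 to 539 in βCat-GOF mice, which did not overlap.

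*Irf9*, the DNA-binding part of the ISRE-binding complex, passed the test but not the fold cut-off (-0.47, SE 0.11, edgeR adjusted p = 0.0367). *Stat2*, another part of that complex, and *Irf1*, a factor that binds ISRE-like elements, were at -0.37 and -0.24 with edgeR adjusted p-values of 0.0871 and 0.357. *Ciita*, the transactivator of MHC class II genes, was at -0.94 (edgeR adjusted p = 0.145). Among 8 inhibitors, *Usp18*, which blocks the type I receptor and is itself interferon-induced, had 184, 272 and 434 counts in Ctrl and 116, 126 and 157 in βCat-GOF mice. Its groups did not overlap, and it fell by 1.11 (SE 0.18, edgeR adjusted p = 0.00487). The feedback inhibitors *Socs3* and *Socs1* were at -0.95 and +0.59 and did not pass.

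Partner genes of these GTPases were measured as a list of 18, which holds the autophagy conjugation genes that help place GBPs and IRGs on vacuoles and the caspases and sensors downstream of GBPs. None was called by edgeR, with 2 lower and 0 higher at an unadjusted p under 0.05 and 0 at DESeq2's adjusted p, and their median log2 fold change was 0.04. The largest differences were those of the DNA sensor *Aim2* (-0.56), of *Casp4*, which encodes the lipopolysaccharide-sensing caspase-11 (-0.55), and of *Nlrp3* (-0.39), none past the test.

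Some markers of immune cells also had lower group means in βCat-GOF adrenals. Of 13 macrophage markers 10 had a lower mean in βCat-GOF adrenals, against 50% of all genes tested, and their median log2 fold change was -0.35. Summed levels were 525 to 977 CPM in Ctrl and 431 to 712 CPM in βCat-GOF mice, and none was at 0. *Adgre1*, which encodes the macrophage marker F4/80, fell by 0.78 (SE 0.20, edgeR adjusted p = 0.0459), *Mrc1* was at -0.41 (edgeR adjusted p = 0.0495) below the fold cut-off, and *Csf1r*, the receptor that macrophages need to survive, was at +0.11 (edgeR adjusted p = 0.718). *Cd68* and *Cd14* were at -0.72 and +0.43 and did not pass. Mouse by mouse these markers did not all follow the GTPases. βCat-GOF mouse 4, below every Ctrl mouse for each GTPase, had the most *Cd68* (618 normalized counts) and *Csf1r* (1499) of its group. βCat-GOF mouse 6 had the least *Adgre1* (119).

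Of 8 dendritic cell markers 7 were tested and 5 were lower, against 50% of all genes tested. The median log2 fold change of the 7 was -0.93, but only 2 had a base mean above 100. Summed levels of the list were 29.4 to 37.4 CPM in Ctrl and 20.8 to 29.6 CPM in βCat-GOF mice. *Itgax*, which encodes CD11c, fell by 1.39 (SE 0.20, edgeR adjusted p = 0.00204), from 211 ± 45.6 to 80.9 ± 19.4 normalized counts, and *Xcr1* and *Cd209a*, each with a base mean of only 21.4, were at -1.32 and -1.16 and did not pass. *Siglech* and *Flt3* were at +0.43 and +0.03 and *Zbtb46* at -0.11, none past the test. *Ccr7* stayed under 1 CPM in every mouse. Among 13 T and NK cell markers the defining *Cd3d*, *Cd3e*, *Cd3g* and *Trac* stayed under 1 CPM in every mouse and 5 were tested. *Cd4*, with a base mean of 16.9, passed the test at -1.35 (edgeR adjusted p = 0.0330), *Ncr1* and *Gzmb* were at -1.04 and -0.44 and *Gzma* and *Nkg7* at +0.34 and +0.14 without passing, so that 3 were lower and 2 higher. The summed levels of the 13 were 4.49 to 9.47 CPM in Ctrl and 3.00 to 8.06 CPM in βCat-GOF mice. Endothelial cells also express GBPs. Of 9 vessel markers 8 had a lower mean, against 50% of all genes tested, with a median of -0.11. None passed edgeR's adjusted p (2 lower and 1 higher at an unadjusted p under 0.05, and 0 at DESeq2's adjusted p). The part of these cell types in the GTPase values was not tested.

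**Figure D5:**
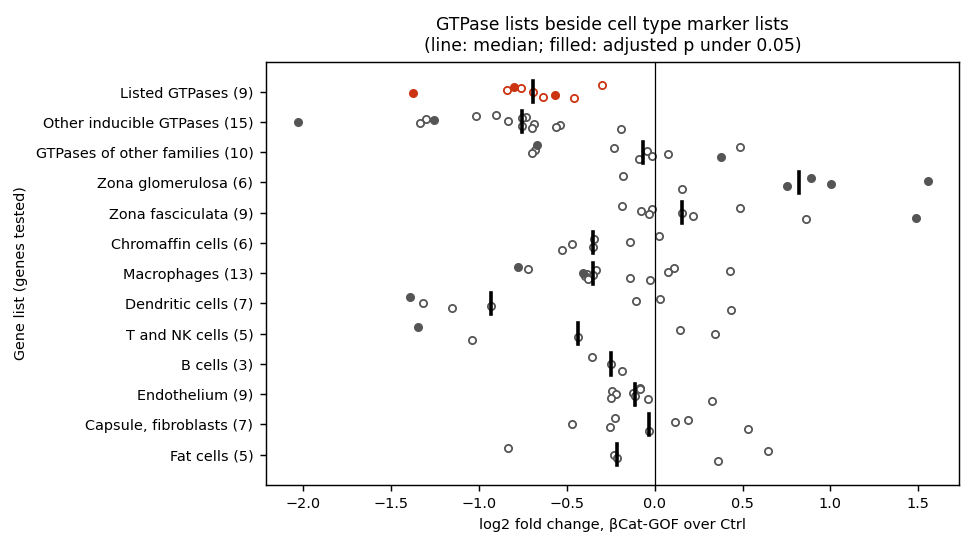
Log2 fold changes of βCat-GOF over Ctrl (x axis) of single genes in 13 lists (rows), with the listed GTPases in red, a black line at each list's median and points filled where edgeR's adjusted p was under 0.05. The medians are -0.69 for the listed GTPases and -0.76 for the other genes of their families. They are -0.93 for dendritic cells, -0.35 for macrophages and -0.11 for endothelium. The dendritic cell median rests mostly on genes with few counts, as only 2 of the 7 tested had a base mean above 100.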

How the data were processed

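RNA of whole adrenals from 6 Ctrl and 6 βCat-GOF female mice was sequenced (TruSeq mRNA libraries), after a check of RNA quality. After adapter trimming, the authors used STAR for alignment to mm10 and featureCounts 1.4.4 to count the uniquely mapping reads of each gene. They deposited these counts for 39017 genes without normalization, and beside them a signal table of the counts divided by 1 factor per library, used here only for gene names and to check scaling. The annotation release and the use of strand are not given in the sources used here. No column was left unmapped (0 columns).

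The counts were tested with edgeR 4.0.16 in R 4.3.3 (TMM, filterByExpr, quasi-likelihood, two-sided), with Benjamini-Hochberg adjustment over 14953 genes. A gene was called at an adjusted p under 0.05, a fold above 1.4 and a base mean above 100. Normalized counts are counts divided by DESeq2 1.42.0 median-of-ratios factors, the SE is the absolute log2 fold change over the square root of F, and log2 CPM used a prior count of 2. The step was tested on simulated data. Mice were numbered in accession order within a group. The depth of 13484675 to 25625494 counts per mouse limits precision for genes with few counts, and p-values measure the spread between these mice, which the labels do not tie to litters.

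Positions, exon lengths and transcripts came from GENCODE M21 (GRCm38), and copies were sought with blastn 2.17.0 (at least 95% identity over 10% of the longest transcript). Promoters came from RefSeq (GRCm38.p6), and all genes of the families with a window were named with their motif result. Protein sequences were not analysed here, and some genes are not reported here and were left out of the lists. The family and all gene lists were chosen with earlier results of these data known. Named genes were all members, in each other list the called genes and the 3 largest changes, *Ctnnb1*, and the 10 genes most like the family's average. *Tgtp2*, *Irgq*, *Gm5431*, *9930111J21Rik1*, *9930111J21Rik2*, *Mfn1*, *Irf9*, *Stat2*, *Irf1*, *Ifnar2*, *Il10rb*, *Mrc1*, *Csf1r*, *Cyp11b1*, *Hsd3b1*, *Cyp11a1*, *Cyp21a1*, *Mc2r*, *Nr5a1*, *Cyp11b2*, *Hsd3b6*, *Siglech*, *Flt3*, *Zbtb46*, *Gzma*, *Nkg7* and genes under 1 CPM were named besides, after their values were seen. Alternatives were DESeq2, its size factors in edgeR, no filter, 10 counts in every mouse, adjusted p alone, each mouse left out, mice with a shared label stem left out or summed, and the mouse with another label number left out. That mouse is βCat-GOF 5, so this last fit repeats the fit without it. Figures used Python 3.11.15 and matplotlib 3.10.9.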

Additional observations from a re-analysis of the deposited data

Results flagged for a closer look

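The 680 normalized counts of *Iigp1* in Ctrl mouse 3 stood apart from the other 5 Ctrl mice, of which the nearest had 419. The gap was 0.63 of the group's whole range (above the critical value of Dixon's test at 95%), and it was the 1 case in 18 groups of 6 mice tested, where chance gives about 1 in 20. Without this mouse *Iigp1* was still called lower.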

How the results depend on the processing

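The direction of all 9 GTPases was the same in each of the 19 alternatives run per gene. The fits without βCat-GOF mouse 5 and without the mouse with another label number are the same fit, counted separately here. The number called lower was 3, and it was 5 with DESeq2, 5 with mice of a shared label stem summed, 1 without the 3 mice with a repeated stem, and 1 to 6 when 1 mouse was left out (1 without βCat-GOF mouse 6, 6 without Ctrl mouse 4). Of the other genes of the inducible families 0 were called, against 1 with DESeq2 and 2 at an adjusted p alone. When 1 mouse was left out it was 0 to 1 (1 without βCat-GOF mouse 1). Of the pathway genes 3 were called lower, against 1 without the 3 mice with a repeated stem and 2 to 4 when 1 mouse was left out. Over all genes, 130 were called lower, against 282 with DESeq2, 228 without the 3 mice, 80 without the mouse with another label number, 228 at an adjusted p alone and 61 to 223 when 1 mouse was left out (61 without Ctrl mouse 6, 223 without βCat-GOF mouse 1). Called higher were 222, against 362 with DESeq2 and 146 to 340 when 1 mouse was left out. The cause of these shifts was not tested. DESeq2's adjusted p was 0.000212 for *Iigp1*, 5.29e-05 for *Irgm1*, 0.00509 for *Gbp3*, 0.0107 for *Gbp6*, 0.0126 for *Irgm2*, 0.0196 for *Igtp*, 0.0612 for *Gbp7*, 0.176 for *Gbp2* and 0.272 for *Gbp4*. No paired analysis was possible because the labels give no replicate numbers shared by the groups.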

Other observations

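Lists of other cells of the gland were measured beside the GTPases. Among 9 markers of the zona fasciculata and of steroid synthesis, *Akr1b7*, an aldose reductase-like enzyme, was called higher by 1.49 on the log2 scale (SE 0.38, edgeR adjusted p = 0.0458), and *Scarb1* and *Star* were at 0.86 and 0.49 and did not pass. None of the 6 chromaffin cell markers passed edgeR's adjusted p, with *Slc18a1*, *Chga* and *Chgb* at -0.53, -0.47 and -0.35. None of the 7 markers of capsule and fibroblasts passed (*Gli1* +0.53, *Dcn* -0.47, *Lum* -0.26), nor any of the 5 tested fat cell markers (*Adipoq* -0.83, *Plin1* +0.64, *Fabp4* +0.36). All 3 tested B cell markers had a lower mean, against 50% of all genes tested, without passing (*Cd79a* -0.36, *Cd79b* -0.25, *Ms4a1* -0.19). The 3 tested granulocyte and mast cell markers were higher without passing (*Cpa3* +0.95, *S100a9* +0.80, *Mcpt4* +0.10), and *Ly6g*, a neutrophil marker, had 0 counts in every mouse. At an unadjusted p under 0.05 in edgeR, 1 chromaffin cell marker was lower, and 1 marker of capsule and fibroblasts, 1 of fat cells and 1 of granulocytes and mast cells were higher, with 0 of the B cell markers. DESeq2's adjusted p passed 1 fat cell marker as higher and 0 in the other 4 of these lists. Among vessel markers the largest differences were those of *Cldn5* (+0.33), *Plvap* (-0.25) and *Kdr* (-0.24).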
